A study of Rattus norvegicus with 32 samples.

Results

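The mammary glands of the Cop and ACI rat strains were compared with 5 arrays each, chosen by sample title, of 32 arrays in the series. Each array was hybridised with total RNA from normal mammary gland, labelled after extraction on a silica column and lithium chloride precipitation, and the values were Affymetrix signals on a linear scale. Both groups were inbred strains with no treatment named. Age, sex, oestrous stage, hour of collection and scan date are not given in the labels. Nor do these say whether each of the 5 samples of a strain was a separate animal. The p-values set the difference of Cop and ACI against the spread of samples within the 6 groups of the fit. That spread need not be one between animals. The 2 pool arrays, 1 of Cop and 1 of F344, were left out. The other single-sample arrays, 5 each from the inbred strains F344, BUF/N and WF and from the F1 hybrid of Cop and F344, entered the fit to share its estimate of the spread. They also counted in the floor, in the filter on low signals and in the choice of a gene's probe set for the lists. Below they serve as a scale for the Cop and ACI signals.

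The Copenhagen rat, Cop, is known for its resistance to chemically induced mammary cancer, which its hybrids inherit dominantly. ACI descends from a cross of the August and Copenhagen Irish strains, and is best known for mammary cancer that arises under prolonged oestrogen treatment. The mammary gland holds luminal epithelium, which makes milk proteins under the control of prolactin, a basal layer of contractile myoepithelium, and a bed of fat cells with vessels, macrophages and connective tissue. Markers of these parts were present on all 10 arrays, with signals of 507 to 1234 for the luminal keratin gene Krt18, 291 to 1257 for the basal keratin gene Krt14 and 1343 to 6296 for the fat cell gene Fabp4. RNA from whole glands mixes all of these, so that fewer cells of a type and less RNA per cell cannot be told apart.

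Of 5039 probe sets tested, 383 (7.6%) passed limma's test at an adjusted p under 0.05, 166 (3.29%) of them higher and 217 (4.31%) lower in Cop, and these are called below. The called probe sets represented 298 genes, and 116 of the 383 differed by more than 2-fold, 43 higher and 73 lower in Cop. The 5 Cop and 5 ACI signals did not overlap at 392 probe sets (7.78%), with Cop above ACI at 168 (3.33%) and below it at 224 (4.45%), and of the 392, 232 were also called. The median log2 change over all tested probe sets was -0.062. In limma's fit, 1192 of the 5039 had an unadjusted p under 0.05. The split of calls into higher and lower depended on how arrays were scaled. Centring each array on its own median raised the median change by 0.218 and gave 403 higher and 81 lower (83.3% higher, against 43.3% as tested), and quantile normalization gave 216 higher and 128 lower (62.8% higher). ACI 2 and ACI 5 stood apart, with median signals of 102.1 and 101.8 against 71.7 to 81.2 on the other 8 arrays, and correlations over probe sets of 0.876 to 0.913 with the other ACI arrays but 0.951 with each other. Their ratios of 3' to 5' actin signal, 1.78 and 1.8, were the highest of the Cop and ACI arrays. ACI 1, ACI 3 and ACI 4 had ratios of 1.34, 1.19 and 1.2. Cop 3 came near the pair (1.72), and the 20 other arrays in the fit ran from 1.01 to 1.98. Without this pair 228 probe sets were called, 102 higher and 126 lower in Cop, 175 of them among the 383.

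The 3 other inbred strains lay nearer to ACI than to Cop at most called probe sets. Their mean was nearer to Cop at 152 of the 383 and nearer to ACI at 231, against 2523 and 2516 of all 5039 tested. All 5 Cop arrays lay outside the range of the 15 arrays of F344, BUF/N and WF at 42 called probe sets, and all 5 ACI arrays did so at 23. Over all tested probe sets these numbers were 99 and 57.

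**Figure D1:**
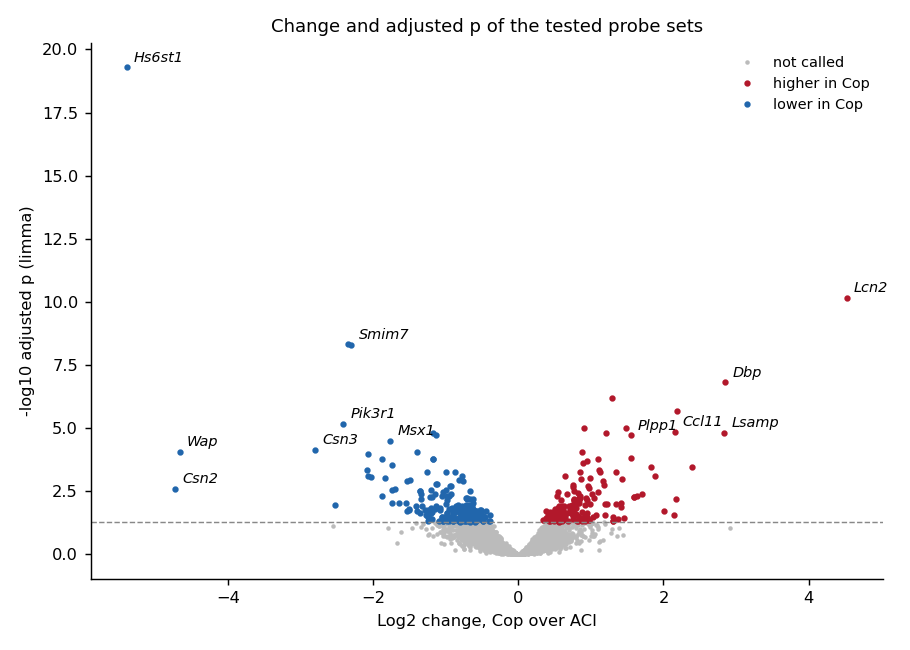
Log2 change of Cop over ACI (x axis) against -log10 of limma's adjusted p (y axis) for the 5039 tested probe sets, with the dashed line at an adjusted p of 0.05. Probe sets called higher in Cop are red (166), those called lower in Cop are blue (217), and Lcn2 and Hs6st1 lie farthest out on either side.

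Lcn2 was the gene with the largest increase in Cop among those whose groups did not overlap. It encodes lipocalin 2, a secreted protein of epithelia and neutrophils that binds bacterial siderophores. Its signals were 1151, 1982, 2013, 1277 and 1657 in Cop 1 to Cop 5, against 67.1, 81.1, 36.7, 55.5 and 136 in ACI 1 to ACI 5. Every Cop array exceeded every ACI array (log2 change 4.53, SE 0.332, adjusted p = 6.8e-11). F344 resembled ACI, at 41.1 to 93.5, while BUF/N and WF arrays lay at 1744 to 4891 and 1852 to 4792, with F1 at 776 to 2271.

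Hs6st1, which encodes a sulfotransferase that adds 6-O-sulfate groups to heparan sulfate, showed the largest decrease. Its signals were 6.5, 12.3, 8.6, 10.2 and 6.3 in Cop 1 to Cop 5, against 912, 901, 585, 520.5 and 1072 in ACI 1 to ACI 5. All 5 Cop signals lay below the floor of 18.3 that was set on low values, so the gene was at least 42.0-fold lower in Cop (adjusted p = 5e-20). The 15 arrays of F344, BUF/N and WF lay at 385 to 687, and F1, which has a Cop parent, at 221 to 332.

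Further genes higher in Cop included Plpp1 and Lsamp. Plpp1, a lipid phosphate phosphatase of the cell surface, was 541 ± 102 in Cop and 192 ± 70.1 in ACI (SD, n = 5 each), with all 5 Cop arrays above the 76.0 to 366 of the other inbred strains (log2 change 1.55, adjusted p = 1.86e-05). A second probe set of Plpp1 was called in the same direction (0.80) and the last was not (0.54, adjusted p = 0.091). Lsamp, which encodes an adhesion protein of neurons, was 148 ± 68.4 in Cop and 15.9 ± 4.34 in ACI (SD, n = 5 each), with ACI 3 alone above the floor in ACI (log2 change 2.84, SE 0.387, adjusted p = 1.51e-05). Sfxn1, a mitochondrial serine transporter, was 358 ± 38.9 in Cop and 115 ± 46.2 in ACI (SD, n = 5 each; log2 change 1.70, adjusted p = 0.00402), while its brighter probe set did not pass (0.69, adjusted p = 0.0695). Sord, which oxidises sorbitol to fructose, Dgcr6 and the septin gene Septin8 were higher by 1.59, 1.42 and 1.31 on the log2 scale. ACI 2 and ACI 5 were the 2 lowest arrays in each of these last 3: without that pair the adjusted p was 0.12 for Sord, 0.25 for Dgcr6 and 0.26 for Septin8. A second probe set of Sord had a log2 change of 0.39 and did not pass. The call of Dgcr6 ended without ACI 2 or ACI 5 (adjusted p = 0.051 to 0.058). That of Septin8 ended without Cop 1, Cop 2, Cop 3, Cop 4, ACI 2, ACI 4 or ACI 5 (adjusted p = 0.056 to 0.11).

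Further genes lower in Cop included Smim7 and Pik3r1. Smim7 encodes a small membrane protein. Its signals were 39.5, 37.6, 45.8, 55.1 and 42.5 in Cop 1 to Cop 5, against 289.8, 266, 154, 140.2 and 274 in ACI 1 to ACI 5. The Cop arrays spanned a narrow range below that of ACI (log2 change -2.30, SE 0.206, adjusted p = 4.99e-09). Pik3r1, the regulatory subunit of phosphoinositide 3-kinase, was 35.4 ± 10.9 in Cop and 191 ± 68.8 in ACI (SD, n = 5 each; log2 change -2.42, SE 0.308, adjusted p = 6.54e-06), and its second probe set was lower by 1.87 on the log2 scale (adjusted p = 0.000173). Msx1, a homeobox transcription factor expressed in mammary epithelium, was 66.5 ± 21.4 in Cop and 235 ± 93.2 in ACI (SD, n = 5 each; log2 change -1.77, adjusted p = 3.14e-05), and Fhl2, a LIM-domain cofactor, was 33.5 ± 21.7 in Cop and 136 ± 45.8 in ACI (SD, n = 5 each; log2 change -2.09, adjusted p = 0.00047). For Msx1 and Fhl2 the arrays of F344 lay at 119 to 172 and 161 to 218, above all 5 Cop arrays. Lbp, which encodes the lipopolysaccharide-binding protein, was 166 ± 75.7 in Cop and 557 ± 112 in ACI (SD, n = 5 each; log2 change -1.83, adjusted p = 0.000951). Aadat, a kynurenine aminotransferase, was changed by -1.74 on the log2 scale (adjusted p = 0.00281), but without ACI 2 and ACI 5 its adjusted p was 0.065.

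**Figure D2:**
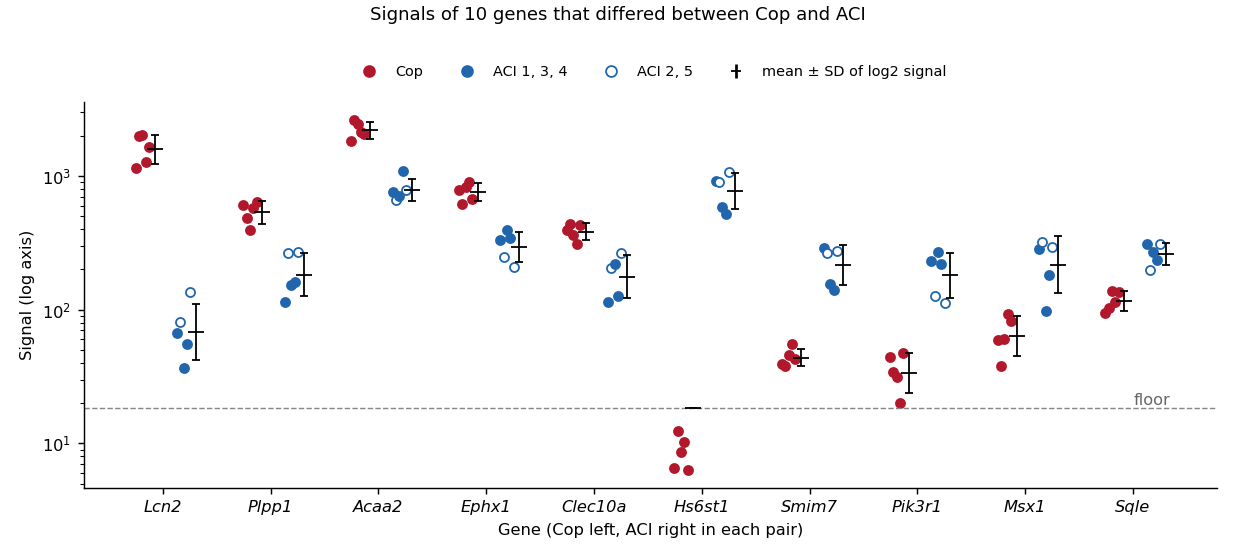
Signals (y axis, log scale) of 10 genes on each array, with Cop (red) left of ACI (blue) in each pair, ACI 2 and ACI 5 as open circles, and bars for the mean ± SD of the floored log2 signals (n = 5 each). Lcn2, Plpp1, Acaa2, Ephx1 and Clec10a were higher in Cop, Hs6st1, Smim7, Pik3r1, Msx1 and Sqle were lower, and the 2 strains overlapped at none of the 10. The dashed line is the floor of 18.3.

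Several circadian clock genes differed between the strains. In the clock, the BMAL1 and CLOCK proteins drive the genes of their own repressors through E-box motifs, among them the Per genes, the Nr1d genes and Bhlhe40 and Bhlhe41, as well as the output factor Dbp, so that Bmal1 and these targets peak at opposite times of day. Of the 8 clock genes tested, 4 were called higher and 0 lower in Cop, against 3.29% and 4.31% of all probe sets, and the list's median log2 change was 0.88 against -0.062 over all probe sets. The mean level of the 8 genes, as log2 signal relative to all 30 arrays, was 0.16 ± 0.09 in Cop and -0.79 ± 0.23 in ACI (SD, n = 5 each), with arrays at 0.05 to 0.26 in Cop and -0.99 to -0.42 in ACI. F344, BUF/N and WF averaged 0.34, 0.26 and 0.27, and F1 -0.24.

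Dbp, a PAR bZIP transcription factor of clock output, had signals of 892, 689, 621, 796 and 929.6 in Cop 1 to Cop 5, against 359, 164, 213, 253 and 22.7 in ACI 1 to ACI 5 on its brighter probe set. The groups did not overlap, and ACI 5 was far below the other ACI arrays (log2 change 2.39, SE 0.406, adjusted p = 0.000333). The dimmer probe set differed by 2.85 (adjusted p = 1.5e-07), and on it the ACI arrays lay at 12.4 to 78.2, below the 206 to 411 of the other inbred strains. Per2, a repressor of BMAL1 and CLOCK, was 67.3, 85.6, 90.3, 125 and 111 in Cop 1 to Cop 5, against 63.3, 12.3, 39.5, 33.9 and 13.8 in ACI 1 to ACI 5. ACI 2 and ACI 5 were the lowest of the 10 and lay below the floor (log2 change 1.60, SE 0.354, adjusted p = 0.00513). Bhlhe41 and Bhlhe40, which repress the same factors, were 754 ± 121 in Cop and 406 ± 60.2 in ACI and 138 ± 15.8 in Cop and 68.9 ± 19.5 in ACI (SD, n = 5 each), with log2 changes of 0.89 (adjusted p = 0.000239) and 1.04 (adjusted p = 0.0058). Nr1d2 and Nr1d1, nuclear receptors that repress Bmal1, did not pass (log2 changes 0.87 and 0.80), and neither did Tef (-0.25) and Csnk1d (0.24). Without ACI 2 and ACI 5, 3 of the 8 were called higher, against 102 of all 5039 probe sets. In that fit the adjusted p of Per2 was 0.098, the highest over the 25 other settings, of which the lowest was 0.00128.

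Bmal1 ran the other way. Both of its probe sets were too dim for the filter on low signals and were not among the 5039. On the first, the signals were 6.0, 11.2, 11.2, 11.2 and 11.2 in Cop 1 to Cop 5, against 104, 24.3, 166, 123 and 30.6 in ACI 1 to ACI 5. On the second, they were 10.5, 7.5, 6.5, 4.3 and 14.8 in Cop 1 to Cop 5, against 42.8, 27.7, 63.4, 80.1 and 85.5 in ACI 1 to ACI 5. All Cop arrays lay below the floor and all ACI arrays above it on both probe sets, so that Bmal1 was at least 3.78-fold lower on the first and at least 3.02-fold lower on the second probe set in Cop. When the filter was dropped and all probe sets other than controls were fitted, both were called (adjusted p = 0.005 and 0.000586). The 15 arrays of F344, BUF/N and WF lay at 5.4 to 27.4 on the first and 2.9 to 19.8 on the second, and F1 lay at 18.4 to 93.1 and 22.6 to 82.5. The labels do not give the time of day at which the glands were taken.

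**Figure D3:**
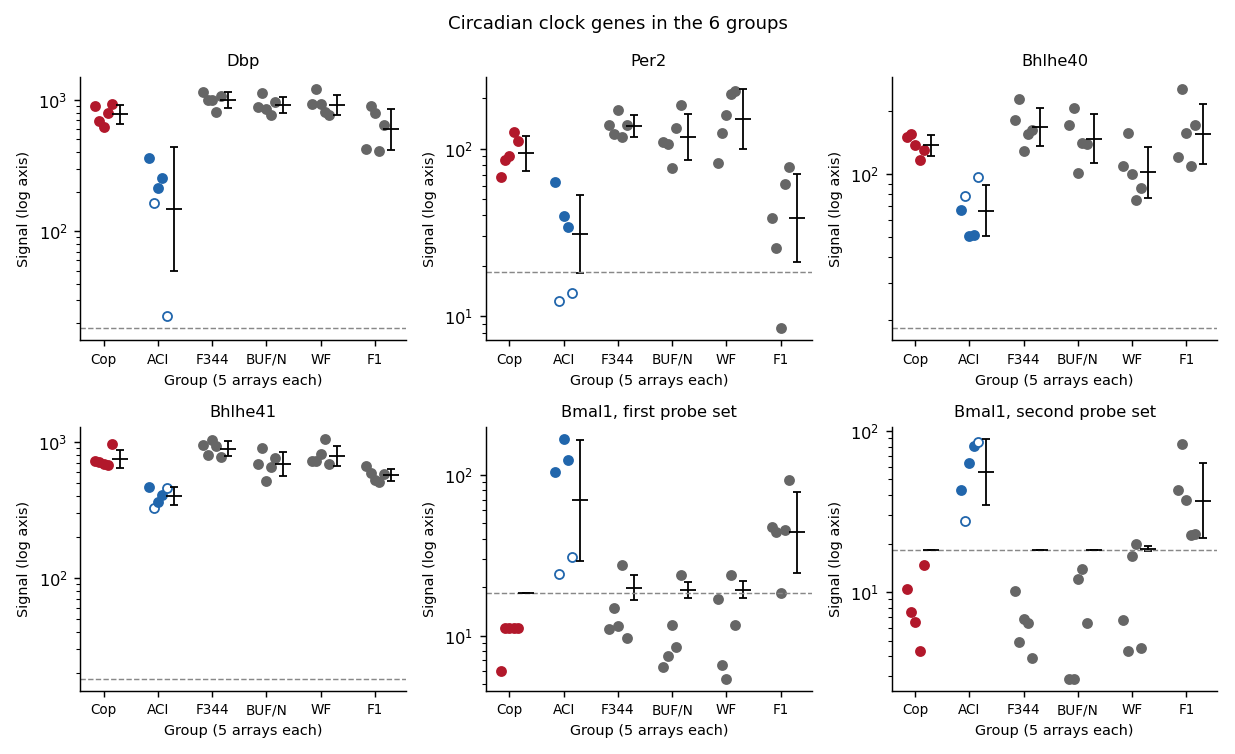
Signals (y axis, log scale) of Dbp, Per2, Bhlhe40, Bhlhe41 and both probe sets of Bmal1 in the 6 groups of 5 arrays, with Cop (red) left of ACI (blue, ACI 2 and ACI 5 open) and the other groups in grey, bars for the mean ± SD of the floored log2 signals, and a dashed line at the floor of 18.3. Cop lay above ACI at the first 4 genes and below it at both Bmal1 probe sets.

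The E-box CACGTG was searched on both strands of the 250 bases before the start of each clock gene, in RefSeq promoters of the GRCr8 assembly, which is neither a Cop nor an ACI genome. It was found in 4 of the 7 tested clock genes that had a promoter there (Bhlhe41, Bhlhe40, Nr1d1 and Tef), and in 5.59% of all 33469 promoters. Dbp, Per2 and Nr1d2 had no match in this window. The stretches of Bhlhe41 (chr4:180569356-180569505 on the minus strand, with the motif starting 48 bases before the gene's start) and Bhlhe40 (chr4:143174200-143174449 on the plus strand, 220 bases before it) are shown because both genes were called, with the E-box in capitals.
Bhlhe41: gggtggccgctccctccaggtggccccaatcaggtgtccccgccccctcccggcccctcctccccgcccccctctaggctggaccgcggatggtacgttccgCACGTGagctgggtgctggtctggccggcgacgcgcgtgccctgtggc
Bhlhe40: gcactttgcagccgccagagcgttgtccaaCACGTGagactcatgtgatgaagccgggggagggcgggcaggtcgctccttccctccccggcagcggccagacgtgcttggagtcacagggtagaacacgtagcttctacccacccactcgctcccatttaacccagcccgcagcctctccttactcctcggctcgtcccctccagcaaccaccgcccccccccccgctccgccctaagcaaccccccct

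Most of the milk protein genes tested were lower in Cop. Of the 11 tested, 6 were called lower and 0 higher, against 4.31% and 3.29% of all probe sets, and the median log2 change was -1.07. Wap, which encodes the whey acidic protein, had signals of 6.2, 12.4, 15.5, 7.6 and 54.6 in Cop 1 to Cop 5, against 1081, 1048, 252, 419 and 531 in ACI 1 to ACI 5. Cop 5 was above the floor and Cop 1 to Cop 4 below it, and no Cop array reached the lowest ACI array (log2 change -4.66, SE 0.715, adjusted p = 8.61e-05). Csn3, the kappa-casein gene, was 344.2, 425, 1019, 362 and 1689 in Cop 1 to Cop 5, against 6761, 4195, 3508, 4909.8 and 3086 in ACI 1 to ACI 5. The groups did not overlap, and Cop 5 and Cop 3 were the highest of the Cop arrays (log2 change -2.80, SE 0.422, adjusted p = 7.02e-05). Csn2, the beta-casein gene, was 10.8, 26.4, 46.3, 22 and 550.5 in Cop 1 to Cop 5, against 4095, 2485, 174, 2831 and 708 in ACI 1 to ACI 5. Cop 5 exceeded ACI 3 here, so the groups overlapped (log2 change -4.73, SE 0.965, adjusted p = 0.00253).

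The alpha-casein gene Csn1s1 was 3983 ± 1162 in Cop and 6281 ± 880.0 in ACI (SD, n = 5 each; log2 change -0.69, adjusted p = 0.021). Olah, a thioesterase that releases the medium-chain fatty acids of milk fat, was 852 ± 518 in Cop and 2158 ± 433 in ACI (SD, n = 5 each; log2 change -1.55, adjusted p = 0.0096), and Muc1, an apical mucin, was 107 ± 27.9 in Cop and 178 ± 52.0 in ACI (adjusted p = 0.0466). Csn1s2a, a second alpha-casein gene, had a log2 change of -2.55 and Glycam1 of -1.07, and neither passed (adjusted p = 0.0725 and 0.36). Lalba, which encodes alpha-lactalbumin, was at -0.16, and Xdh, an enzyme of milk fat secretion, at 0.30. With ACI 2 and ACI 5 left out, 4 milk genes were called lower, against 126 of all 5039 probe sets. The adjusted p was then 0.137 for Csn1s1 and 0.362 for Muc1. Muc1 lost its call in 16 of the 25 other settings (adjusted p up to 0.47), and Csn1s1 in 8 of the 25 other settings (adjusted p up to 0.241). The call of Muc1 ended without Cop 1, Cop 2, Cop 4, Cop 5, ACI 1, ACI 2 or ACI 5 (adjusted p = 0.051 to 0.18). That of Csn1s1 ended without Cop 1, Cop 4, ACI 2 or ACI 5 (adjusted p = 0.052 to 0.082). F344 resembled Cop rather than ACI at Wap, where its arrays lay at 25.7 to 49.4, and BUF/N lay at 253 to 3379.

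The sequence TTCNNNGAA, the form bound by STAT proteins such as the prolactin-activated STAT5, was searched in the same way, a choice made after the milk genes' values were seen. It occurred in 4 of the 11 milk genes tested (Csn2, Csn1s1, Csn1s2a and Glycam1) and in 7.67% of all 33469 promoters. Of the milk genes called lower, Csn3, Wap, Olah and Muc1 had no match in this window. Csn1s2a and Glycam1 had a match but were not called. The stretches of Csn2 (chr14:20601674-20601823 on the plus strand) and Csn1s1 (chr14:20638850-20638999 on the minus strand), 2 called casein genes, are shown with the match in capitals. It began 97 and 100 bases before the start of these genes in this order.
Csn2: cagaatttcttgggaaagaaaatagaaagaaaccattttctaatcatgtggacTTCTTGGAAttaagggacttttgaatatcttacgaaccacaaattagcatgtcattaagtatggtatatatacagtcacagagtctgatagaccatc
Csn1s1: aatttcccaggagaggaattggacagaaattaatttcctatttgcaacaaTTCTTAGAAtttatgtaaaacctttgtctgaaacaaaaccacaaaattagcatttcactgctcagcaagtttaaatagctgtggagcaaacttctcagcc

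**Figure D4:**
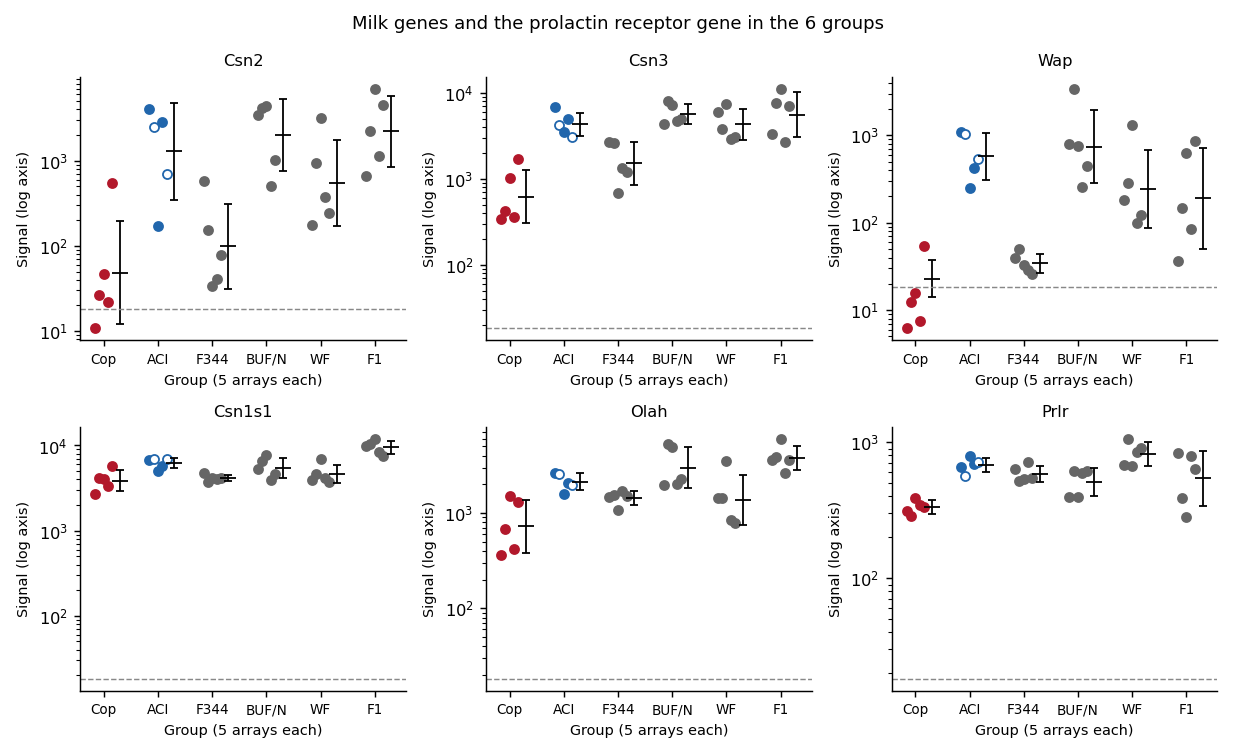
Signals (y axis, log scale) of Csn2, Csn3, Wap, Csn1s1, Olah and Prlr in the 6 groups of 5 arrays, with Cop (red) left of ACI (blue, ACI 2 and ACI 5 open) and the other groups in grey, bars for the mean ± SD of the floored log2 signals, and a dashed line at the floor of 18.3. Cop averaged below ACI at each of the 6 genes, without overlap at Csn3, Wap, Olah and Prlr.

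Some hormone and growth factor receptor genes were lower in Cop as well. Of 18 tested genes of hormone and growth factor signalling, 5 were called lower and 0 higher, against 4.31% and 3.29% of all probe sets, with a median log2 change of -0.50. Prlr, the prolactin receptor, was 312, 289, 392, 347 and 336 in Cop 1 to Cop 5, against 654, 565, 791, 693 and 722 in ACI 1 to ACI 5. No Cop array reached the lowest ACI array (log2 change -1.03, SE 0.217, adjusted p = 0.00337), and 2 further probe sets of Prlr were also called lower (-0.99 and -0.71). Igfbp5, an IGF-binding protein of the involuting gland, was 238 ± 64.8 in Cop and 569 ± 109.5 in ACI (SD, n = 5 each; log2 change -1.28, adjusted p = 0.0176), although its other 2 probe sets did not pass (0.34 and -0.24). The receptor kinases Erbb2, Erbb3 and Fgfr2 changed by -0.65, -0.77 and -0.70 on the log2 scale (adjusted p = 0.0223, 0.0297 and 0.0387). Nrg1, a ligand of ERBB3, was 23.3 ± 10.1 in Cop and 80.3 ± 21.5 in ACI (SD, n = 5 each; log2 change -1.70, SE 0.348, adjusted p = 0.00254).

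The remaining members of this list did not pass, among them the progesterone receptor gene Pgr (-1.02, adjusted p = 0.0919), the growth factor gene Areg (-1.80, adjusted p = 0.0915), Igf1 (0.44, adjusted p = 0.0702), Ghr (0.28), Egfr (-0.49) and the transducer of prolactin signalling Stat5a (-0.39). Esr1, the oestrogen receptor alpha gene, was below the filter, with signals of 27.7 to 46.4 in Cop and 7.9 to 48 in ACI. Under centring 2 of the 18 were called lower and 1 higher, against 81 and 403 of all 5039 probe sets. The adjusted p was then 0.13 for Erbb2 and 0.11 for Erbb3. Without ACI 2 and ACI 5 that of Fgfr2 was 0.197. The call of Igfbp5 ended without Cop 2 (adjusted p = 0.059). That of Erbb2 ended without Cop 1, Cop 2 or ACI 4 (adjusted p = 0.056 to 0.071). That of Erbb3 ended without Cop 1, Cop 2, ACI 1, ACI 3 or ACI 4 (adjusted p = 0.052 to 0.095). That of Fgfr2 ended without Cop 1, Cop 2, Cop 3, ACI 2, ACI 3 or ACI 5 (adjusted p = 0.07 to 0.1). Fgfr2 lost its call in 13 of the 25 other settings (adjusted p up to 0.267), and of its other 2 probe sets 1 was called (-0.83) and 1 was not (-0.44).

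A minority of the epithelial markers tested were called lower in Cop, although most had a log2 change below 0. This held for 8 of 9 luminal markers (median -0.62) and 10 of 11 of basal epithelium and smooth muscle (median -0.53). Of 9 luminal markers, 4 were called lower, against 4.31% of all probe sets, namely the keratin gene Krt19 (569.7 ± 216 in Cop and 969 ± 157 in ACI), the surface antigen gene Cd24 (722 ± 164 in Cop and 1179 ± 231 in ACI) and the tight junction genes Cldn3 (440.4 ± 163 in Cop and 768 ± 272 in ACI) and Cldn7 (144 ± 51.0 in Cop and 225 ± 46.2 in ACI; SD, n = 5 each throughout), and Lcn2 was called higher. Log2 changes of the 4 ran from -0.83 to -0.70, and Epcam, Krt8, Krt18 and Ocln had values of -0.62, -0.49, -0.41 and -0.45 without a call. Of 11 markers of basal epithelium and smooth muscle, 3 were called lower, against the same 4.31%, which were the contractile genes Actg2 (-0.95), Cnn1 (-0.61) and Tagln (-0.53), and Krt5 and Krt14 were at -0.84 and -0.58 without a call. Myh11, smooth muscle myosin, was called on a dim probe set (-1.54, adjusted p = 0.0192) and not on its brighter one (-0.39). The mean level of the 9 luminal markers, Lcn2 included, was -0.55 ± 0.39 in Cop and -0.49 ± 0.20 in ACI (SD, n = 5 each), with overlapping arrays at -0.91 to -0.13 in Cop and -0.72 to -0.26 in ACI. Lcn2, with a log2 change of 4.53, raised this mean in Cop, while the other 8 markers were each below 0 in log2 change. The mean level of the 11 basal markers lay at -0.64 to -0.05 in Cop and -0.07 to 0.32 in ACI. The part of these markers in the changes of the milk and receptor genes was not tested.

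The epithelial calls depended on scaling and on single arrays. With arrays centred on their medians, 0 of the 9 luminal markers were called lower (median log2 change -0.40), 1 of the 11 basal ones and 4 of the 11 milk genes. That scaling called 81 of all 5039 probe sets lower and raised the median change of all by 0.218. Without ACI 2 and ACI 5, 4 luminal, 2 basal and 4 milk genes were called lower, against 126 of all 5039 probe sets. The adjusted p was then 0.12 for Cd24, 0.06 for Cnn1 and 0.098 for Myh11. A second probe set of Tagln was at -0.06 without a call. The call of Krt19 ended without Cop 1 (adjusted p = 0.068). That of Cldn3 ended without Cop 1, Cop 2, Cop 4, ACI 1 or ACI 4 (adjusted p = 0.068 to 0.11). That of Cldn7 ended without Cop 1, Cop 2, Cop 4, ACI 1, ACI 3, ACI 4 or ACI 5 (adjusted p = 0.056 to 0.17). That of Cnn1 ended without Cop 1 or Cop 4 (adjusted p = 0.053 to 0.068). That of Tagln ended without Cop 1 (adjusted p = 0.055). Cldn7 lost its call in 14 of the 25 other settings (adjusted p up to 0.172), while a second Cldn7 probe set was called as well (-0.80).

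Several genes of fat cells were higher in Cop, and several lipid synthesis genes were lower. Of 17 adipocyte genes tested, 6 were called higher and 0 lower, against 3.29% and 4.31% of all probe sets, and 15 of the 17 had a log2 change above 0 (median 0.53). Car3, an abundant carbonic anhydrase of fat, was 6541, 6747, 4437, 5745 and 4905 in Cop 1 to Cop 5, against 3057, 2367, 3903, 4477 and 3129 in ACI 1 to ACI 5. ACI 4 slightly exceeded Cop 3, and the groups overlapped there alone (log2 change 0.76, SE 0.151, adjusted p = 0.00183). Aqp7, the glycerol channel of fat cells, was 1373 ± 133 in Cop and 907 ± 145 in ACI (SD, n = 5 each) and Cfd, adipsin, 6741 ± 1166 in Cop and 4508 ± 627 in ACI. Dgat1, which completes triglyceride synthesis, and Lipe, the hormone-sensitive lipase, changed by 0.54 and 0.52 on the log2 scale, and Pparg, the master regulator of fat cells, by 0.83. Plin1 (0.65), Cebpa (0.97), Pck1 (1.27) and the glucose transporter gene Slc2a4 (-0.91) did not pass, and Fabp4, Lpl and Lep lay at 0.38, 0.24 and -0.04. The mean level of the 17 genes ran from 0.18 to 0.53 in Cop and -0.22 to 0.14 in ACI. With ACI 2 and ACI 5 left out, 3 of the 17 were called higher, and under centring 10. Of all 5039 probe sets, 102 and 403 were called higher in these fits, and centring raised the median change of all by 0.218. In the first of these fits the adjusted p was 0.063 for Dgat1, 0.097 for Aqp7, 0.069 for Cfd, 0.246 for Lipe and 0.265 for Pparg. The call of Aqp7 ended without Cop 1, Cop 2, ACI 1 or ACI 2 (adjusted p = 0.052 to 0.068). That of Cfd ended without Cop 2, Cop 4, ACI 4 or ACI 5 (adjusted p = 0.054 to 0.078). That of Lipe ended without Cop 1, Cop 2, Cop 4, ACI 2 or ACI 5 (adjusted p = 0.059 to 0.095). That of Pparg ended without Cop 1, Cop 2, ACI 2 or ACI 5 (adjusted p = 0.066 to 0.11). A second Lipe probe set did not pass (0.35).

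Among 20 lipogenic and sterol pathway genes, 3 were called lower and 0 higher in Cop, against 4.31% and 3.29% of all probe sets, with a median of -0.32. Sqle, the squalene epoxidase of the cholesterol pathway, was 94.2, 102, 138, 114 and 135 in Cop 1 to Cop 5, against 308, 198, 271, 235 and 309 in ACI 1 to ACI 5. The groups did not overlap (log2 change -1.18, SE 0.191, adjusted p = 0.000173). Fasn, fatty acid synthase, was 1190.0 ± 328 in Cop and 2480.0 ± 488 in ACI (SD, n = 5 each; log2 change -1.08, adjusted p = 0.018), with -0.94 and no call on a second probe set, and Scd2, a fatty acid desaturase, was 591 ± 235 in Cop and 1310.0 ± 339 in ACI (SD, n = 5 each; log2 change -1.18, adjusted p = 0.0051) and was called lower on 4 further probe sets. Acaca, Acly and Me1, which feed the same pathway, had log2 changes of -0.85, -0.81 and -1.03 and did not pass, and the sterol genes Cyp51, Fdps, Lss, Idi1 and Fdft1 lay between -0.34 and 0.03. Under centring 2 of the 20 were called lower, against 81 of all 5039 probe sets, with Fasn at an adjusted p of 0.058. Without ACI 2 and ACI 5 the adjusted p of Scd2 was 0.064. The call of Fasn ended without Cop 2 (adjusted p = 0.051).

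A few genes of mitochondrial beta oxidation were higher in Cop, with 3 of 15 called, against 3.29% of all probe sets, and a median of 0.37. Acaa2, the thiolase of the last step of the cycle, was 1817, 2634, 2440.5, 2144 and 2053 in Cop 1 to Cop 5, against 752, 655, 708, 1086 and 779.6 in ACI 1 to ACI 5. No ACI array reached a Cop array, and the other inbred strains lay at 1103 to 2348 (log2 change 1.49, SE 0.196, adjusted p = 1.01e-05). Acadl, the long-chain acyl-CoA dehydrogenase, and Acat1, a thiolase of ketone metabolism, changed by 0.74 and 0.67 (adjusted p = 0.0115 and 0.00395), and without ACI 2 and ACI 5 the adjusted p was 0.11 for Acadl and 0.088 for Acat1. A second probe set of Acat1 was called higher as well (0.87). The dimmest one had the other sign without passing (-0.92). Of 20 respiratory chain and ATP synthase genes 0 were called in limma's fit, with a median of 0.11. An unadjusted p under 0.05 was found for 0 of these 20, against 1192 of all 5039 probe sets. Aldoc was the single gene called among 14 of glycolysis (-1.04, adjusted p = 0.0486), against 4.31% of all probe sets called lower. Its call ended in 18 of the 25 other settings (adjusted p up to 0.19).

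**Figure D5:**
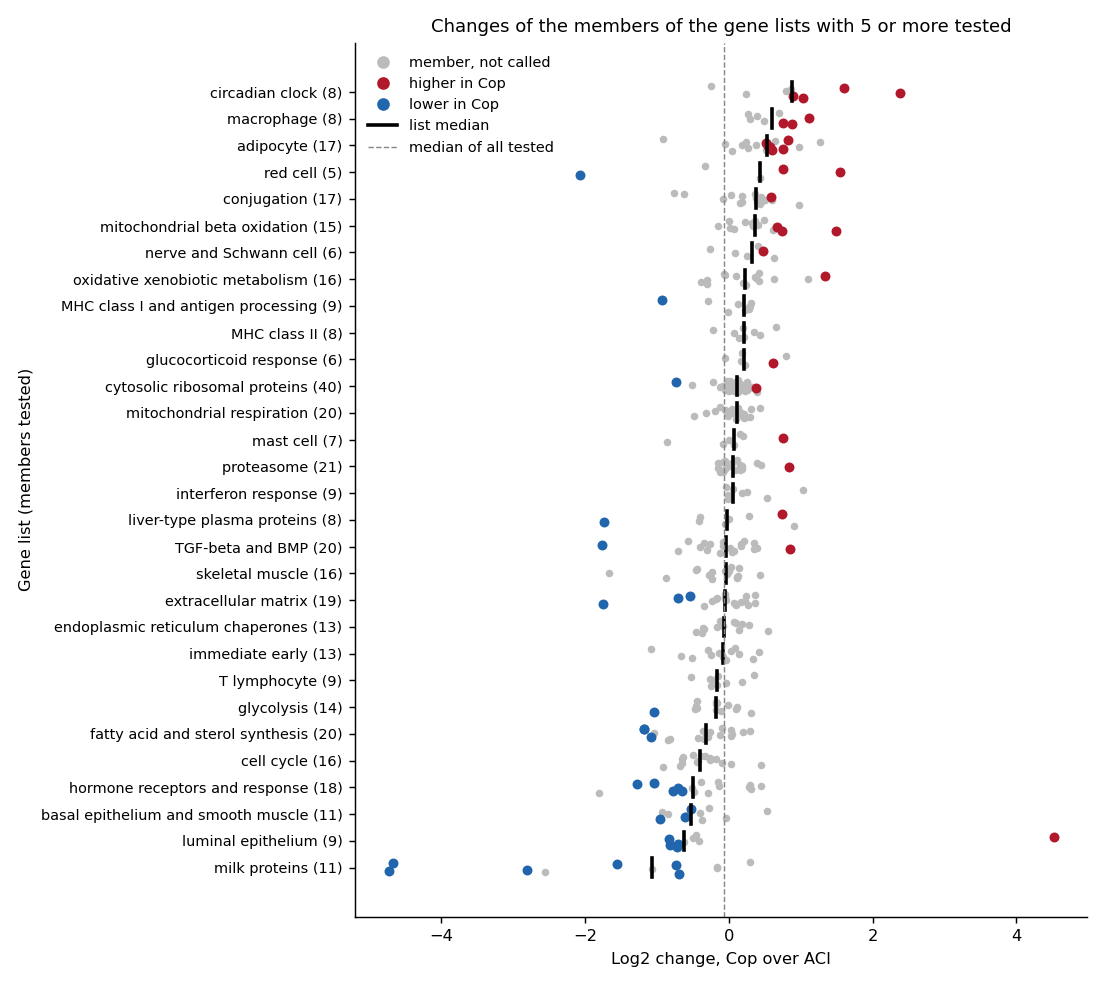
Log2 change of Cop over ACI (x axis) of each tested member of the 30 gene lists with 5 or more tested members (y axis, with the number tested), with called members in red (higher in Cop) and blue (lower in Cop), list medians as black bars and the median of all tested probe sets dashed. Clock, macrophage and adipocyte lists had the highest medians, and milk protein, luminal, basal and receptor lists the lowest.

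Some macrophage genes were higher in Cop, with 3 of 8 called, against 3.29% of all probe sets, 0 lower and all 8 above 0 (median 0.60). Clec10a, a lectin of macrophages, was 392, 435, 364, 311 and 430.5 in Cop 1 to Cop 5, against 114, 206, 218, 126 and 265 in ACI 1 to ACI 5. Every Cop array lay above every ACI array and above the 130.4 to 297 of the other inbred strains (log2 change 1.12, SE 0.199, adjusted p = 0.000527). C1qb, a chain of complement C1q, was 2057 ± 156 in Cop and 1221 ± 178 in ACI (SD, n = 5 each; log2 change 0.76, adjusted p = 0.00312), and its second probe set was called too (0.83). Aif1 was 423 ± 39.6 in Cop and 237 ± 68.9 in ACI (SD, n = 5 each; adjusted p = 0.0362), and C1qc, Lyz2 and Cd14 had values of 0.49, 0.70 and 0.30 without a call. The mean level of the list lay at 0.12 to 0.41 in Cop and -0.51 to 0.02 in ACI. A second Aif1 probe set did not pass (0.49), and without ACI 2 and ACI 5 the adjusted p of the first was 0.27. The call of Aif1 ended without Cop 1, Cop 2, Cop 3, Cop 4, Cop 5, ACI 2, ACI 4 or ACI 5 (adjusted p = 0.053 to 0.12).

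Ccl11, eotaxin, which attracts eosinophils, was 72.4, 83.8, 124, 100.4 and 82.4 in Cop 1 to Cop 5, against 17.0, 25.5, 17.1, 11.1 and 22.7 in ACI 1 to ACI 5. In ACI, 3 of the arrays lay below the floor, and every Cop array was well above it (log2 change 2.15, SE 0.29, adjusted p = 1.38e-05), and the other inbred strains were at 40.3 to 147. Milr1, a receptor of mast cells, was 208 ± 17.8 in Cop and 126 ± 31.7 in ACI (SD, n = 5 each; log2 change 0.75, SE 0.186, adjusted p = 0.0122), above the 79.1 to 144 of the other strains in each Cop array. But it was the single call among 7 mast cell genes, against 3.29% of all probe sets called higher. The proteases Tpsab1, Cpa3 and Cma1 lay at 0.20, -0.08 and 0.07. In limma's fit 0 of 9 T lymphocyte genes, 0 of 8 MHC class II genes and 0 of 9 interferon response genes were called. At an unadjusted p under 0.05 these counts were 0, 1 and 1, against 1192 of all 5039 probe sets. Tap2, a peptide transporter of antigen processing, was lower, at 132 ± 35.6 in Cop and 249.2 ± 52.3 in ACI (SD, n = 5 each; log2 change -0.93, SE 0.198, adjusted p = 0.00395). It was the single call among 9 class I genes, against 4.31% of all probe sets called lower.

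The tested globin genes that had a gene symbol did not all change in the same direction. Hbb, beta-globin, was 3252, 4409, 2264, 3848 and 1519 in Cop 1 to Cop 5, against 1045, 1112, 1161, 824 and 785 in ACI 1 to ACI 5. The groups did not overlap (log2 change 1.55, SE 0.248, adjusted p = 0.000156). Hbb-b1 was 1334 ± 495 in Cop and 750.1 ± 108 in ACI (SD, n = 5 each; adjusted p = 0.0296). Hba-a3, an alpha-globin gene, went the other way and was 22.8, 19.8, 26.7, 32.5 and 18.3 in Cop 1 to Cop 5, against 70.7, 246, 102, 39.4 and 133 in ACI 1 to ACI 5. It was dim in every Cop array and in F344, at 10.4 to 28.6 (log2 change -2.07, SE 0.322, adjusted p = 0.000106). Alas2, of red cell haem synthesis, and Slc4a1 were at 0.43 and -0.33 without a call. These globin genes belong to families of near-identical copies, which probe sets may not separate. Probe sets with several gene symbols or none were not examined for globins. Alpha-globin is therefore described here by the dim Hba-a3 probe set alone, which need not stand for the other alpha-globin copies. The adjusted p of Hbb-b1 was 0.061 without ACI 2 and ACI 5. The call of Hbb-b1 ended without Cop 1, Cop 2, Cop 4, ACI 1, ACI 4 or ACI 5 (adjusted p = 0.052 to 0.11).

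Of 8 plasma protein genes known from liver, 1 was called higher and 1 lower on the probe set with the highest signal. Over all probe sets 3.29% and 4.31% were called so, and the list's median log2 change was -0.02. Alb, serum albumin, was called on 1 of its 3 probe sets, where it was 242, 131, 140.3, 157 and 138 in Cop 1 to Cop 5, against 12.3, 10.2, 98.6, 93.1 and 14.9 in ACI 1 to ACI 5. ACI 3 and ACI 4 were high, while ACI 1, ACI 2 and ACI 5 lay below the floor (log2 change 2.15, adjusted p = 0.0265), and the other 2 probe sets did not pass (0.91 and 0.80). C4bpa, a regulator of complement, was 31.3 ± 12.3 in Cop and 109 ± 50.5 in ACI (SD, n = 5 each; log2 change -1.73, SE 0.412, adjusted p = 0.00956), and Serpina3n, a protease inhibitor, 1071 ± 131 in Cop and 644 ± 131 in ACI (adjusted p = 0.0203). Scgb2a1, a secretoglobin, was 34.6 ± 29.6 in Cop and 237 ± 167 in ACI (SD, n = 5 each; log2 change -2.52, adjusted p = 0.0115). Without ACI 2 and ACI 5 the adjusted p was 0.23 for Alb, 0.068 for Serpina3n and 0.11 for Scgb2a1. The call of Alb ended without Cop 1, ACI 1, ACI 2 or ACI 5 (adjusted p = 0.063 to 0.084). That of Serpina3n ended without Cop 4, ACI 2 or ACI 4 (adjusted p = 0.05 to 0.051).

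Genes of enzymes that activate or remove carcinogens were examined as well, in a series set up to study inherited susceptibility to mammary cancer. Any part of these genes in that susceptibility was not tested. Of 16 genes of oxidative metabolism tested, 1 was called higher on the probe set with the highest signal, against 3.29% of all probe sets. Ephx1, the microsomal epoxide hydrolase, which takes part in the activation of polycyclic hydrocarbons, was 783, 615, 831, 896 and 672 in Cop 1 to Cop 5, against 329, 247, 393, 341 and 208 in ACI 1 to ACI 5. The groups did not overlap, and ACI 5 and ACI 2 were the lowest (log2 change 1.35, SE 0.239, adjusted p = 0.000527). F344 arrays lay at 769 to 879 and F1 at 158 to 486. Cyp2e1, the ethanol-inducible cytochrome P450, was 368 ± 195 in Cop and 86.9 ± 33.8 in ACI (SD, n = 5 each) on one probe set (log2 change 2.01, adjusted p = 0.0189), and the other 2, both brighter, gave 1.10 and 1.02 without passing. Ephx2, the soluble hydrolase (0.10), Cyp1b1 (0.43), Nqo1 (-0.07) and Cbr1 (-0.39) did not pass. Cyp1a1 lay below the floor on all 10 arrays. Of 17 conjugation genes 14 were above 0 (median 0.38). Gstt1 was the single call among them (0.59, adjusted p = 0.0336), against 3.29% of all probe sets called higher. It was not called without ACI 2 and ACI 5 (adjusted p = 0.26). The call of Gstt1 ended without Cop 1, Cop 2, Cop 4, ACI 1, ACI 2 or ACI 5 (adjusted p = 0.056 to 0.099). That of Cyp2e1 ended without Cop 2 (adjusted p = 0.051).

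Of 19 extracellular matrix genes, 3 were called lower and 0 higher, against 4.31% and 3.29% of all probe sets, and the median of -0.05 was close to the -0.062 of all probe sets. Col2a1, the collagen of cartilage, was 41.1 ± 14.1 in Cop and 135 ± 33.0 in ACI (SD, n = 5 each; log2 change -1.75, SE 0.294, adjusted p = 0.00029). Mmp14, a membrane-bound metalloproteinase, was 2390.0 ± 427 in Cop and 3886 ± 674 in ACI (SD, n = 5 each; log2 change -0.70, adjusted p = 0.00606), and the metalloproteinase inhibitor Timp1 553 ± 103 in Cop and 798 ± 86.9 in ACI (adjusted p = 0.0324). The main fibrillar collagen genes Col1a1, Col1a2 and Col3a1 lay at 0.10, 0.27 and 0.07. Of 20 TGF-beta and BMP genes, 1 was called higher and 1 lower, against 3.29% and 4.31% of all probe sets, with a median of -0.03. Within this list, Id1, an inhibitor of differentiation factors, was 848 ± 196 in Cop and 470.1 ± 106 in ACI (SD, n = 5 each; log2 change 0.85, SE 0.191, adjusted p = 0.0057), opposite to Msx1, and a dimmer Id1 probe set was at -0.42 without a call. Tgfb1 was at 0.35. Under centring, the adjusted p of Mmp14 was 0.081 and that of Timp1 0.24, and without ACI 2 and ACI 5 that of Id1 was 0.097 and that of Timp1 0.078. The call of Timp1 ended without Cop 1, Cop 2, ACI 1, ACI 2 or ACI 4 (adjusted p = 0.062 to 0.13).

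Other lists held few calls. In limma's fit 0 of 16 cell cycle genes were called, and 4 had an unadjusted p under 0.05, against 1192 of all 5039 probe sets. Of the 16, 14 were below 0 (median -0.40). Ccnd1, cyclin D1, was 760.1 ± 181 in Cop and 1238 ± 399 in ACI (SD, n = 5 each; -0.68, adjusted p = 0.0778), and of its other 3 probe sets 1 was called (-0.75, adjusted p = 0.0238) and 2 were not (-0.53 and -0.36). Skeletal muscle genes varied widely within each strain: 0 of 16 were called in limma's fit (0 at an unadjusted p under 0.05), their mean level lay at -1.85 to 2.34 in Cop and -0.58 to 1.57 in ACI, and Acta1 was 2131 ± 1872 in Cop and 1790.0 ± 1032 in ACI (SD, n = 5 each). Of 40 ribosomal protein genes 1 was called in each direction, Rpl27 (0.38) and Rps24 (-0.74), of 21 proteasome genes Psmb4 (0.84), of 6 glucocorticoid response genes Glul (0.62) and of 6 nerve genes Pmp22 (0.48). Over all probe sets 3.29% were called higher and 4.31% lower. In limma's fit 0 of 13 immediate early genes and 0 of 13 endoplasmic reticulum chaperone genes were called. An unadjusted p under 0.05 was found for 1 and 4 of them, against the same 1192 of 5039. The call of Rpl27 ended without Cop 1, Cop 2, Cop 5, ACI 1 or ACI 2 (adjusted p = 0.074 to 0.1). That of Glul ended without Cop 2 (adjusted p = 0.051). That of Pmp22 ended without Cop 2, Cop 4 or ACI 5 (adjusted p = 0.055 to 0.076). Glul passed on 1 of its 4 probe sets. Rps24 lost its call in 16 of the 25 other settings (adjusted p up to 0.24). Without ACI 2 and ACI 5 the adjusted p was 0.11 for Psmb4, 0.11 for Glul, 0.19 for Pmp22 and 0.088 for Rpl27.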

How the data were processed

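The deposited values were 1 linear signal intensity per probe set and array, made by the authors with Affymetrix Microarray Suite 5.0, per the labels. The trimmed means of all arrays (2% trim) were 250.3 to 250.4. No further step of the authors is given in the sources used here. Precision is limited by having 5 arrays a group. Of 8799 probe sets, 7018 had 1 gene symbol, 308 several and 1473 none in the platform annotation, 6994 matched the gene table by identifier, and 59 control probe sets were left out.

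Signals were floored at the 25th percentile of all values (18.3) and taken to log2, so fold changes of dim genes are understated. A probe set was tested where at least 5 of the 30 single-sample arrays exceeded the overall median of 78.4. limma 3.58.1 in R 4.3.3 fitted the means of 6 groups (lmFit, eBayes with a variance trend), with Benjamini-Hochberg adjustment over 5039 probe sets and a threshold of 0.05. In simulated data on those probe sets the fit recovered 38.8%, 80.6% and 98.5% of the probe sets changed by 1.5-fold, 2-fold and 4-fold, with 3 others called. The simulated noise was normal and independent between arrays, and changes were put only into brighter probe sets. These shares therefore need not hold for dim probe sets or for arrays that stand apart. The alternatives changed the floor, the filter, the scaling, the fit or the arrays used.

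Members and gene lists were chosen with earlier results of these data known. Named were the 15 genes with the largest change in each direction among called probe sets with 1 symbol and no overlap of the groups (of 93 higher and 94 lower), up to 4 called members of each list with the smallest adjusted p, and a set of genes whatever their result. The other called list members, and further members not called, were named after their values were seen. In lists, a gene stood by its probe set of highest mean over the 30 arrays. Promoter sequences came from RefSeq on GRCr8.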

Additional observations from a re-analysis of the deposited data

Results flagged for a closer look

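In groups of 5 arrays, a signal is given here where its gap to the nearest other array exceeded 0.71 of the group's range (Dixon's 95% limit). Chance gives about 1 in 20 groups such a gap, and 12 of 183 groups of the named genes had one. Cop 5 was the high array at Csn2 (550.5, next 46.3, gap 0.934 of the range), Bhlhe41 (967.7, next 726.5, 0.836), Wap (54.6, next 15.5, 0.808), Tagln (1314, next 892, 0.737) and Scd2 (998.5, next 584, 0.722). Cop 2 was high at Psmb4 (2033, next 1391, 0.733) and Glul (2227, next 2010.2, 0.725). Cop 1 was high at Alb (242.5, next 156.8, 0.766) and Cop 4 at Aif1 (491.7, next 416.7, 0.753). ACI 3 was high at Lsamp (23.4, next 15.2, 0.774) and Sfxn1 (195.4, next 112.9, 0.737), and ACI 4 at Acaa2 (1086, next 779.6, 0.711).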

How the results depend on the processing

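Of the 77 called probe sets among 92 named ones, 32 kept their call in every one of the 25 other settings in which they were tested, and 6 of the 32 were too dim to be tested with the filter of 15 arrays. None of the 77 changed direction. Leaving out ACI 2 and ACI 5, which were brighter at their median, gave 228 calls (102 higher and 126 lower in Cop, against 383, 166 and 217) and raised Ccnd1 and Krt8 to a call (adjusted p = 0.033 and 0.045). Leaving out F1 2 and F1 3, which are not part of the comparison but share its spread, gave 626 calls, 257 higher and 369 lower in Cop. Quantile normalization gave 128 calls lower in Cop, and centring on the median 403 higher and 81 lower. Centring without ACI 2 and ACI 5, chosen after seeing the data, gave 197 calls, 80 of them lower in Cop. Leaving out each of the 10 arrays in turn gave 213 to 414 calls, 94 to 192 higher and 103 to 224 lower in Cop, lowest in total without Cop 1 (213), Cop 2 (217) or ACI 2 (226). Removing arrays shrinks the groups. The cause of the other changes was not tested. With the replicate number as a block there were 330 calls, 150 higher and 180 lower in Cop. Same-numbered Cop and ACI arrays did not deviate together (correlations of -0.102 to 0.072). This shows no sign of pairing by number but cannot exclude a small shared effect, and the labels do not say. The floor of 18.3 bounds what can be said of dim genes such as Wap, Hs6st1 and Bmal1 in Cop.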

Other observations

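The pooled Cop array, which entered no fit, lay nearer to the mean of the 5 Cop arrays than to that of the 5 ACI arrays at 359 of the 383 called probe sets, against 3642 of all 5039. The 383 were chosen for a difference between these same means, so a higher share is built in. The sample titles do not say which samples were pooled. Among called probe sets without a gene symbol, rc_AA859899_at and AF036548_at were higher in Cop (log2 changes 2.19 and 1.83), and rc_AA893212_at and rc_AA866419_at were lower (-2.34 and -2.07). Of 154 called probe sets whose gene had another tested probe set, 60 had one called in the same direction, 0 had one called in the opposite direction and 94 had none called.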
